A study of Homo sapiens with 18 samples.

Results

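Estrogen receptor α (ERα) binding sites that were repeated in only 1 of the 2 cell lines were examined. The cells were ZR751 (ZR75-1), a long-established line from an ER+ breast tumor. In ZR751shMLL3 a lentiviral hairpin RNA is directed against MLL3 (gene symbol KMT2C), while the hairpin of the ZR751shLucif control targets luciferase. Both lines were stably transduced, sorted for the GFP of the vector and harvested at steady state in serum-containing medium, and each line rests on 1 hairpin. ChIP-seq for ERα, H3K4me1 and SP1 and RNA-seq were available as 2 libraries per line and assay. The regions were chosen by ERα signal alone. The 10000 strongest peaks of each of the 4 ERα lists were merged at an overlap of 1 bp into 37196 regions. A region was kept when both libraries of a cell line held a peak there and neither library of the other line did. This gave 165 regions, of which 83 were ZR751shLucif-only and 82 were ZR751shMLL3-only.

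ERα is a ligand-activated transcription factor. It binds DNA as a dimer at the estrogen response element (ERE), an inverted repeat of the arms GGTCA and TGACC with a spacer of 3 bases, and it also reaches DNA through other factors such as AP-1 and SP1. Most ERα sites of breast cancer cells lie at distal enhancers, where the pioneer factor FOXA1 opens the chromatin and GATA3 often sits beside the receptor. MLL3 is a methyltransferase that places H3K4me1, the histone mark of primed and active enhancers.

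The sequences under the strongest regions are shown because the ERE is a feature that the choice by signal had not used. Each window reaches 100 bases to either side of the mean ERα summit and is given on the plus strand of GRCh37, with the ERE in capitals. Of the 10 best-ranked ZR751shMLL3-only regions, 5 held an exact ERE, and the first 3 of these follow.
ZR751shMLL3-only region 1, chr13:43724086-43724286: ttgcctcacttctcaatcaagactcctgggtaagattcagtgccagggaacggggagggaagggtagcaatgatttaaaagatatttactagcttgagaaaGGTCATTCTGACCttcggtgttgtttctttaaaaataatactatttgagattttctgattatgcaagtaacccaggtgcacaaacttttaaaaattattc
ZR751shMLL3-only region 4, chr10:100760246-100760446: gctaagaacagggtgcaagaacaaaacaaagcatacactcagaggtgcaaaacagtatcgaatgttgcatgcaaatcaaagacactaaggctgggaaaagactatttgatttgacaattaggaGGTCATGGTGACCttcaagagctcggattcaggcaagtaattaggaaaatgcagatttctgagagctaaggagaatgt
ZR751shMLL3-only region 7, chr3:117850106-117850306: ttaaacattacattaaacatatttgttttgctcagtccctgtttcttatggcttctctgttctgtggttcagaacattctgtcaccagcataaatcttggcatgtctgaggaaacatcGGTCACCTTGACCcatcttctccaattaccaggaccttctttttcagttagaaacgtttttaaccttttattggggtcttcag
None of the 10 best-ranked ZR751shLucif-only regions held an exact ERE. The best of them, in an intron of BCL2, held an ERE with 1 mismatch in its arms. It was chosen after its values were seen.
ZR751shLucif-only region 1, chr18:60908647-60908847: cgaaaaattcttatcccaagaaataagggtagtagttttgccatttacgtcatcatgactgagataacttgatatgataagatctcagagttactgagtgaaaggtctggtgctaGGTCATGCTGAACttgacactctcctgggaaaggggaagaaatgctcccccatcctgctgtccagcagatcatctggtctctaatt
The ZR751shLucif-only set held 3 exact EREs in all. Those at regions 32 and 40 by rank follow, likewise chosen after their values were seen.
ZR751shLucif-only region 32, chr5:133640141-133640341: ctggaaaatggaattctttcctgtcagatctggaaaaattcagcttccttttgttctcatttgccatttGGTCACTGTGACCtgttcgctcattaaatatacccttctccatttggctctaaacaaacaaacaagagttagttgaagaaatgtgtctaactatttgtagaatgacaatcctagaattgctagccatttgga
ZR751shLucif-only region 40, chr10:80918330-80918530: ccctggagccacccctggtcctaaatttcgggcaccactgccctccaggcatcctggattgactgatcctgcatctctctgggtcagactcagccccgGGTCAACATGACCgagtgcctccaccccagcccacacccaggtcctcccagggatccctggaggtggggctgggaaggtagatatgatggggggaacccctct

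Repetition between the lists was rare in every combination. Of the merged regions, 9593 were found in ZR751shLucif replicate 1 alone, 8653 in ZR751shLucif replicate 2 alone, 8300 in ZR751shMLL3 replicate 1 alone and 9567 in ZR751shMLL3 replicate 2 alone. Regions in all 4 libraries numbered 150. The most frequent pair crossed the cell lines, with 441 regions shared by ZR751shLucif replicate 2 and ZR751shMLL3 replicate 1 only. The other cross-line pairs held 64, 43 and 28 regions. The 83 and 82 members therefore lay within the range of the cross-line pairs. By the library names, ZR751shLucif replicate 2 and the ZR751shLucif input belonged to another library series than the other 3 ERα libraries and the ZR751shMLL3 input. The members also depended on a single library of the opposite line. Without ZR751shMLL3 replicate 1 the ZR751shLucif-only set held 163 regions, and without ZR751shLucif replicate 2 the ZR751shMLL3-only set held 192.

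**Figure D1:**
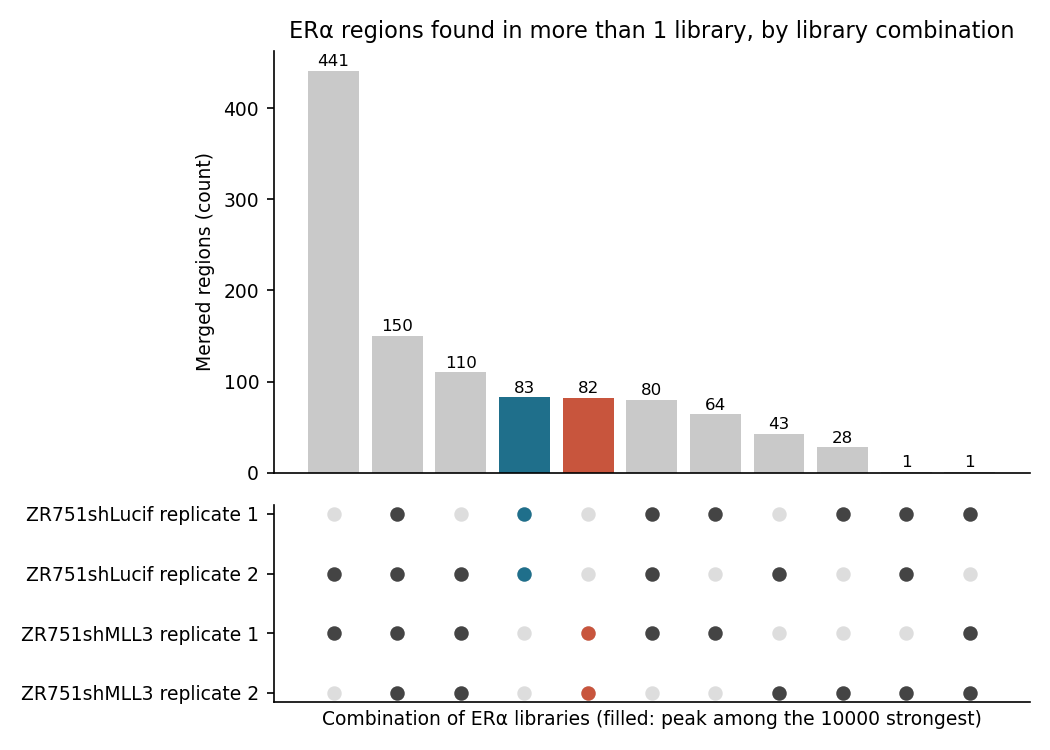
Merged ERα regions found in more than 1 library (count, vertical axis), by combination of libraries, with filled dots marking the libraries that hold a peak. The 83 ZR751shLucif-only regions are in blue and the 82 ZR751shMLL3-only regions in red, and both bars stand below the 441 regions of the largest cross-line pair.

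The deposited signal of each list had its own scale, so ranks within a list are given. The highest false discovery rate (FDR) among the 10000 peaks was 0.00235 in ZR751shLucif replicate 1 and 0.0184 in replicate 2. For ZR751shMLL3 it was 0.140 in replicate 1 and 0.00583 in replicate 2. All 10000 peaks of ZR751shLucif replicate 1 had the same FDR, so the FDR does not order the libraries by quality. By the paper's counts of peaks reproduced within a library, ZR751shLucif replicate 2 and ZR751shMLL3 replicate 1 were the stronger of their lines. The largest cross-line pair joined these libraries, while each set of members also needed the weaker library of its line. The part of this in the choice of members was not tested. ZR751shLucif-only regions had a median rank of 4447 in replicate 1 and of 2337 in replicate 2. ZR751shMLL3-only regions had median ranks of 3369.5 and 3333.5. In ZR751shLucif, 15 and 25 of the 83 members (18.1% and 30.1%) ranked within the first 1000, which are 10% of a list. In ZR751shMLL3 16 and 14 of the 82 did (19.5% and 17.1%). These ranks chose the members and describe them only.

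The best-ranked ZR751shLucif-only region, chr18:60908526-60909001, lay in an intron of BCL2, which encodes an inhibitor of apoptosis. It ranked 132 and 314 in its own libraries, and 48551 and 210488 in ZR751shMLL3. Region 3, chr5:130832284-130832759, lay in an intron of RAPGEF6, an exchange factor for Rap GTPases, with ranks of 362 and 289. Region 5, chr1:225091680-225092155, lay in an intron of the axonemal dynein gene DNAH14, with ranks of 381 and 657. Region 6, chr16:50739998-50740473, lay in an intron of NOD2, a sensor of bacterial cell wall fragments, with ranks of 93 and 860, and neither ZR751shMLL3 library listed it.

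The remaining members of the 10 best included a promoter. Region 4, chr8:110346158-110346633, lay 0.065 kb from the start of NUDCD1, with ranks of 423 and 280. Region 7, chr8:116951370-116951888, was intergenic, 270 kb from TRPS1, a GATA-type repressor of breast epithelium, with ranks of 601 and 1108. Regions 8 to 10 had a poorer rank of 1316, 1322 and 1486. Region 8 lay 62.7 kb from ATP6AP2, region 9 was intergenic on chromosome 2, and region 10 lay in an intron of the calcium channel gene RYR2.

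The best-ranked ZR751shMLL3-only region, chr13:43723819-43724644, was intergenic, 8.58 kb from LINC00400. It ranked 156 and 70 in its own libraries, and 56126 and 11630 in ZR751shLucif, the latter just outside the limit. Region 2, chr17:31846558-31847378, lay in an intron of the ion channel gene ASIC2, with ranks of 182 and 61, and no ZR751shLucif list held it. Region 3, chr5:161713714-161714333, was intergenic, with ranks of 339 and 103. Region 4, chr10:100760010-100760828, lay in an intron of HPSE2 (heparanase 2), with ranks of 366 and 576 and no listing in ZR751shLucif. Region 8, chr3:145811785-145812404, lay in an intron of PLOD2, a lysyl hydroxylase of collagen, 8.37 kb from its nearest start. It ranked 538 and 1219 and was likewise not listed in ZR751shLucif.

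Regions 5 to 7, 9 and 10 complete the best-ranked ZR751shMLL3-only regions. Region 5, chr8:13014286-13015153 in an intron of DLC1, had a rank of 10190 in ZR751shLucif replicate 2. Region 6 lay in an intron of ZNF595, and region 7 in an intron of an unnamed gene on chromosome 3. Region 9 lay in an intron of LEKR1 and region 10 in an intron of MAN1A1, a Golgi mannosidase. Their poorer ranks ran from 614 to 1354.

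Absence from the 10000 strongest peaks was not absence from the relaxed lists. Of the ZR751shLucif-only regions, 30 were listed in ZR751shMLL3 replicate 1 and 18 in replicate 2, at median ranks of 64438.5 and 112121. Neither ZR751shMLL3 list held 44 of the 83. Of the ZR751shMLL3-only regions, 8 were listed in ZR751shLucif replicate 1 and 25 in replicate 2, and neither list held 53 of the 82. The list of ZR751shLucif replicate 1 was shorter, with 156481 peaks against 299403 to 300000 in the others, and its peaks were narrower, with a median of 204 bp against 310 to 620 bp. At the limit, the poorest own rank of a member was 9948 in ZR751shLucif and 9867 in ZR751shMLL3, and the best rank in the opposite line was 10113 and 10190. Just outside, regions of 1 own library had a rank of 10204 and 11111 in the other ZR751shLucif library, and of 10043 and 10008 in the other ZR751shMLL3 library.

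An exact ERE within 100 bp of the summit was found at 3 of 83 ZR751shLucif-only regions (3.61%, 95% Wilson interval 1.24 to 10.1). It was found at 10 of 82 ZR751shMLL3-only regions (12.2%, interval 6.76 to 21.0). Regions in all 4 libraries held it at 53 of 150 (35.3%), and all merged regions at 0.661%. With 1 mismatch allowed in the arms, 12 of the ZR751shLucif-only regions (14.5%, interval 8.47 to 23.6) and 15 of the ZR751shMLL3-only regions (18.3%, interval 11.4 to 28.0) held an element, against 121 of 150 regions in all 4 libraries (80.7%) and 2.2% of all merged regions. Both sets of members lay above the background of all regions and below the regions repeated in all libraries. Nearly all merged regions were held by a single library, so this background is mainly one of unrepeated peaks. The cross-line pairs would be the closer comparison, and their shares of EREs, H3K4me1 and promoters were not computed. The intervals of the 2 sets overlapped, and they cover counting error only. In windows of the same length 1000 bp downstream in the genome, exact EREs were found at 0 of 83 and 0 of 82 members, which allows a share of up to 3.61% and 3.66%, taken as 3 counts of the total. With 1 mismatch, the flanks held 0 and 1.

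Regions that missed membership through 1 library of the opposite line held the element more often than the members. An ERE with at most 1 mismatch was found at 46 of 81 regions (56.8%, interval 45.9 to 67.0) held by both ZR751shLucif libraries and 1 ZR751shMLL3 library. It was found at 84 of 111 regions (75.7%, interval 66.9 to 82.7) held by both ZR751shMLL3 libraries and 1 ZR751shLucif library. The opposite library was nearly always the same. For 80 of the 81 regions it was ZR751shMLL3 replicate 1, and for 110 of the 111 it was ZR751shLucif replicate 2.

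**Figure D2:**
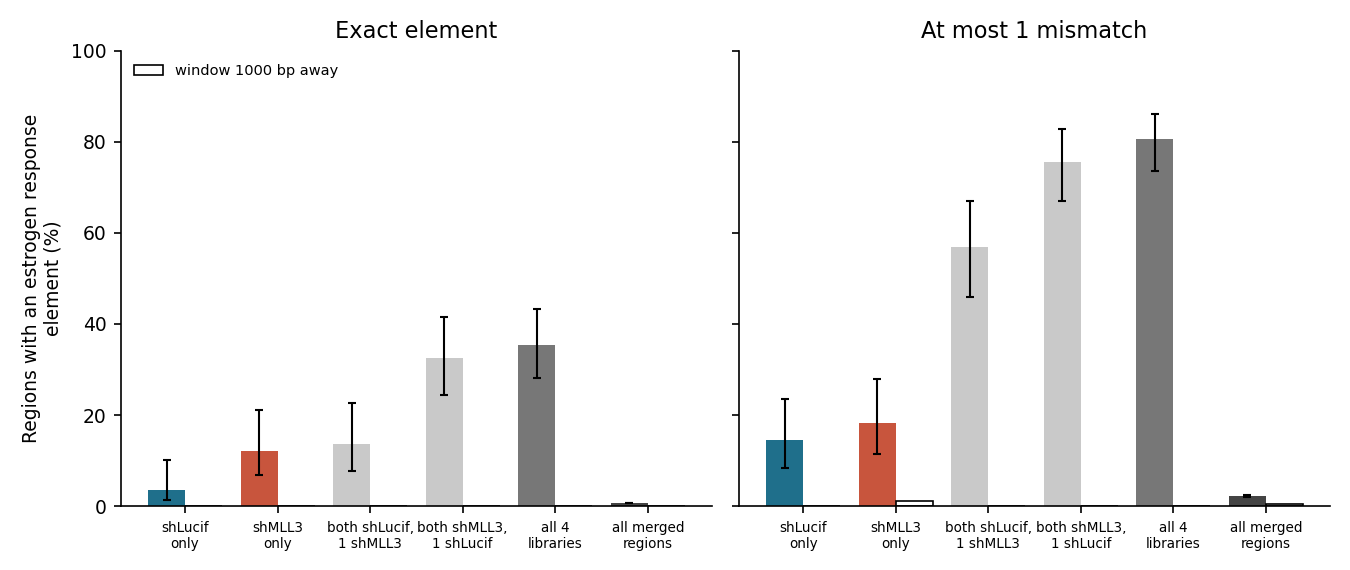
Percent of regions with an estrogen response element within 100 bp of the ERα summit (filled bars, with 95% Wilson intervals) and in a window 1000 bp away (open bars), for the exact element (left) and with at most 1 mismatch (right). The ZR751shLucif-only (14.5%) and ZR751shMLL3-only (18.3%) regions stand between all merged regions (2.2%) and the regions in all 4 libraries (80.7%).

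The elements lay mostly at the better-ranked members. Of the 10 best ZR751shMLL3-only regions, 8 held an ERE with at most 1 mismatch, against 4 of the next 31 and 3 of the last 41. Of the 10 best ZR751shLucif-only regions, 3 did, against 6 of the next 31 and 3 of the last 42. The median poorer rank of members with such an element was 3932.5 in ZR751shLucif-only and 1294 in ZR751shMLL3-only regions. Of members without it, the median was 6386 and 6805. Rank also chose the members, so this is a description.

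The members with an exact ERE were spread over several kinds of genes. Of the ZR751shLucif-only regions these included chr5:133639990-133640465 in an exon of the kinase gene CDKL3, and chr10:80918238-80918713 in an intron of ZMIZ1, a coactivator of nuclear receptors. Their ranks were better in replicate 2 (588 and 585) than in replicate 1 (4981 and 6047). Of the ZR751shMLL3-only regions with an exact ERE, 5 were among the 10 best and are described above. The other 5 lay in introns of DSCAM, SNX1, NFIA and PDE3A and 18.4 kb from THNSL2. SNX1 encodes a sorting nexin, NFIA a nuclear factor I protein and PDE3A a phosphodiesterase.

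**Figure D3:**
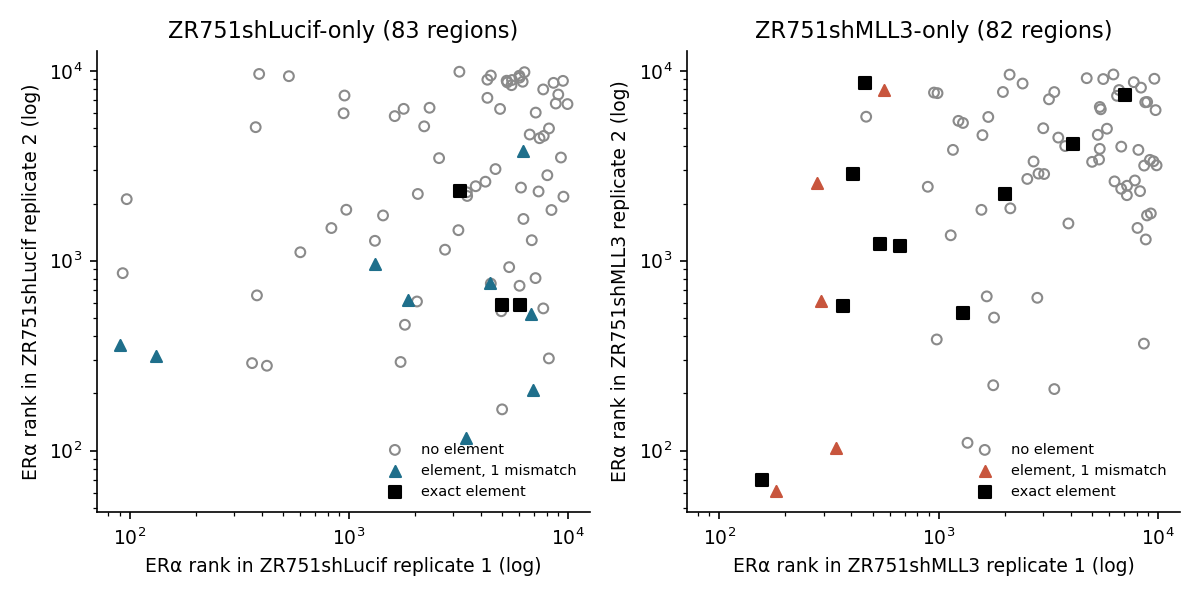
ERα rank of each member in replicate 1 (horizontal axis, log) against replicate 2 (vertical axis, log) of its own cell line, with squares for an exact element, triangles for an element with 1 mismatch and open circles for neither. Of the ZR751shMLL3-only regions, 8 of the 10 best-ranked hold an element, toward the lower left, and most members lie at ranks beyond 1000 with none.

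Other motifs differed less from the background. The forkhead motif (TGTTTAC or TGTTTGC on either strand) was found at 10 of 83 ZR751shLucif-only regions (12.05%, interval 6.68 to 20.8) and 5 of 82 ZR751shMLL3-only regions (6.10%, interval 2.63 to 13.5), against 7.86% of all regions. The GATA motif (AGATAA) was found at 7 (8.43%, interval 4.15 to 16.4) and 17 (20.7%, interval 13.4 to 30.7), against 19.5%. The AP-1 motif (TGACTCA or TGAGTCA) was found at 2 and 3 members, against 3.09% of all regions, and the GC box bound by SP1 (GGGCGG) at 2 and 1, against 1.11%. The ERE arm TGACC and the AP-1 motif share the letters TGAC. The GATA interval of the ZR751shLucif-only regions ended below the share of all regions, and the other intervals named here included theirs. The median GC content of the windows was 38.8% and 37.3%, against 35.3% over all regions.

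The members were mostly distal. The ZR751shLucif-only regions comprised 46 intronic, 24 intergenic, 7 exonic and 6 promoter regions, a promoter being within 1 kb of a transcription start site (TSS). The ZR751shMLL3-only regions comprised 45 intronic, 35 intergenic and 2 exonic regions. Promoters made up 7.23% of the ZR751shLucif-only regions (interval 3.36 to 14.9) and 2.78% of all merged regions. They made up 5.33% of regions in all 4 libraries. The share was 13.6% at regions of both ZR751shLucif and 1 ZR751shMLL3 library, and 6.31% at those of both ZR751shMLL3 and 1 ZR751shLucif library. In ZR751shMLL3-only regions they were 0 of 82, which allows a share of up to 3.66% as 3 counts of the total and 4.48% as the Wilson limit, so that an absence relative to all regions was not detectable with this number. The 6 promoters were those of NUDCD1, TCEA2, BANP, WNK1, HCFC1R1 and an unnamed gene. TCEA2 encodes a transcription elongation factor, BANP a nuclear matrix protein and WNK1 a kinase of ion transport. The median distance to the nearest TSS was 28.0 kb for ZR751shLucif-only and 40.5 kb for ZR751shMLL3-only regions, against 36.8 kb for all regions and 21.2 kb for those in all 4 libraries. A TSS lay within 10 kb of 29 ZR751shLucif-only regions (34.9%) and 15 ZR751shMLL3-only regions (18.3%), against 20.6% of all regions.

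Chromosome 1 held 23 of the 83 ZR751shLucif-only regions (27.7%, interval 19.2 to 38.2) and 15 of the 82 ZR751shMLL3-only regions (18.3%, interval 11.4 to 28.0), against 15.2% of all merged regions. The second interval included the share of all regions. Of the members on chromosome 1, 22 and 13 lay past 125 Mb (95.7% and 86.7%), where 84.2% of all its merged regions lay. The lists differed in the same measure. Of the 10000 strongest ERα peaks, chromosome 1 held 11.1% in ZR751shLucif replicate 1 and 21.9% in replicate 2. It held 20.4% in ZR751shMLL3 replicate 1 and 8.44% in replicate 2. The part of this difference in the choice of members was not tested.

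Opposite members could lie side by side. A ZR751shLucif-only and a ZR751shMLL3-only region had summits 5.96 kb apart in DNAH14, 14.4 kb apart near the manganese transporter gene SLC30A10, and 18.1 kb apart in HPSE2. No other opposite pair lay within 100 kb.

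The next question was whether H3K4me1 followed ERα at these regions. A region counted as marked when it overlapped 1 of the 50000 strongest H3K4me1 peaks of a library. Every library gave the same number of peaks, so the shares compare rank within a library and not the amount of the mark. A loss over the whole genome, which the paper reports for ZR751shMLL3, would largely be hidden. At ZR751shLucif-only regions the mark was present at 25 and 18 of 83 in the ZR751shLucif libraries (30.1% and 21.7%). It was present at 14 and 20 in the ZR751shMLL3 libraries (16.9% and 24.1%). The cell lines overlapped. The mean was 25.9% ± 5.96 (SD, n = 2) in ZR751shLucif and 20.5% ± 5.11 (SD, n = 2) in ZR751shMLL3. They differed by -5.42 percentage points (two-sided exact permutation test, p = 0.667), and 2 against 2 libraries cannot give a p below 0.333. The value was -1.20 without ZR751shLucif replicate 1, -1.81 without ZR751shMLL3 replicate 1 and -18.1 at an FDR of 0.01 or less.

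At ZR751shMLL3-only regions the mark was rarer and the order was the opposite. It was present at 5 and 2 of 82 in the ZR751shLucif libraries (6.10% and 2.44%) and at 8 and 6 in the ZR751shMLL3 libraries (9.76% and 7.32%). The lines did not overlap. The mean was 4.27% ± 2.59 (SD, n = 2) in ZR751shLucif and 8.54% ± 1.72 (SD, n = 2) in ZR751shMLL3. They differed by 4.27 points, with an exact p of 0.333, the smallest possible. The difference turned to -4.88 points when peaks were taken at an FDR of 0.01 or less, where the number of peaks per library was not equalized. The higher share is therefore one of rank and not a gain of the mark. Within each library, the share at ZR751shMLL3-only minus that at ZR751shLucif-only regions was -24.0 and -19.2 points in ZR751shLucif and -7.11 and -16.8 points in ZR751shMLL3. This contrast was 9.69 points higher in ZR751shMLL3 (exact permutation test, p = 0.333), and the lines did not overlap. It was 4.86 without ZR751shMLL3 replicate 1 and 14.5 without replicate 2, and ran from 4.84 with the 20000 strongest H3K4me1 peaks to 20.7 with any listed peak.

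In each of the 4 libraries the mark was more frequent at ZR751shLucif-only than at ZR751shMLL3-only regions. Over all merged regions the share was 4.84% to 6.09%. At regions in all 4 ERα libraries it was 40.7% and 42.7% in ZR751shLucif against 24.0% and 33.3% in ZR751shMLL3. The lines did not overlap there, so a lower share in ZR751shMLL3 was not particular to the ZR751shLucif-only regions. Chromosome 1 also entered here. Outside it, 13, 10, 5 and 9 of 60 ZR751shLucif-only regions were marked in ZR751shLucif replicates 1 and 2 and ZR751shMLL3 replicates 1 and 2, against 4, 2, 8 and 5 of 67 ZR751shMLL3-only regions. The difference between the lines was then -7.50 points at ZR751shLucif-only and 5.22 points at ZR751shMLL3-only regions. The lines no longer overlapped at the ZR751shLucif-only regions and, as before, did not at the ZR751shMLL3-only regions. Each exact permutation p was 0.333. The contrast between the sets rose to 12.7 points. This restriction was chosen after seeing the data.

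**Figure D4:**
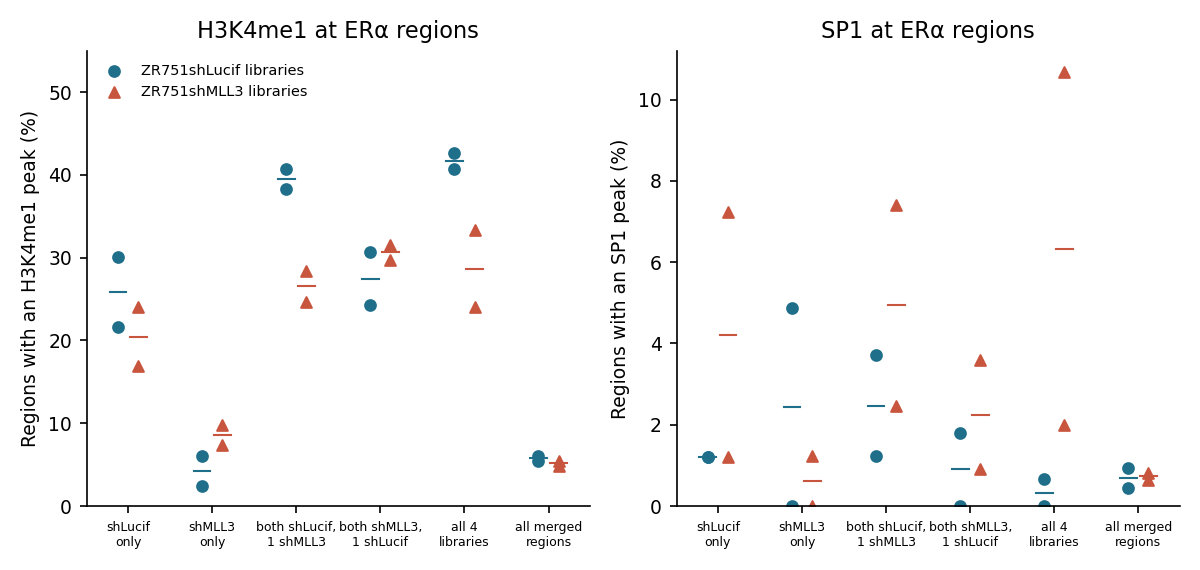
Percent of regions that overlap a strong H3K4me1 peak (left) or SP1 peak (right) in each library, for ZR751shLucif (blue circles) and ZR751shMLL3 (red triangles), with a line at each mean of 2 libraries. H3K4me1 lies at 16.9% to 30.1% of ZR751shLucif-only and at 2.44% to 9.76% of ZR751shMLL3-only regions.

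At single regions the mark seldom followed the line. H3K4me1 was found in both ZR751shLucif libraries and neither ZR751shMLL3 library at 4 of the 83 ZR751shLucif-only regions and 0 of the 82 ZR751shMLL3-only regions. Over all regions 0.882% showed this pattern. Regions in all 4 ERα libraries showed it at 9 of 150. Regions of both ZR751shLucif and 1 ZR751shMLL3 library showed it at 6 of 81, and those of both ZR751shMLL3 and 1 ZR751shLucif library at 8 of 111. The pattern was therefore not particular to the ZR751shLucif-only regions. The 4 ZR751shLucif-only regions lay in introns of NOD2, AGR3 and 2 genes named only by identifier or as long non-coding RNA. AGR3 encodes a protein disulfide isomerase of luminal breast cells. At its region, chr7:16920159-16920689, H3K4me1 ranked 20103 and 14786 in ZR751shLucif, was not listed in ZR751shMLL3 replicate 1 and ranked 63971 in replicate 2. The reverse pattern was found at 2 ZR751shLucif-only regions and 1 ZR751shMLL3-only region, against 0.497% of all regions. In the groups of 150, 81 and 111 regions it was found at 3, 0 and 5. The ZR751shMLL3-only region was the intronic PDE3A site with an exact ERE, chr12:20687099-20687718. There H3K4me1 ranked 20267 and 19774 in ZR751shMLL3, ranked 87502 in ZR751shLucif replicate 2 and was not listed in replicate 1. All 4 libraries marked 6 ZR751shLucif-only regions and 0 ZR751shMLL3-only regions. Of these 6, 5 lay on chromosome 1, including an intron of RALGPS2 and a region 17.0 kb from DUSP10, a phosphatase of stress-activated kinases, and the other lay in an intron of FRS2, 1.07 kb from a start, an adaptor of fibroblast growth factor receptors.

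The mark was also split by the ERE. Of the 15 ZR751shMLL3-only regions with at most 1 mismatch, 1 and 2 were marked in the ZR751shLucif libraries and 4 and 5 in the ZR751shMLL3 libraries. Of the 67 without, 4 and 0 were marked in ZR751shLucif and 4 and 1 in ZR751shMLL3. Of the 12 ZR751shLucif-only regions with an element, 5 and 2 were marked in ZR751shLucif and 2 and 4 in ZR751shMLL3. Of the 71 without, 20 and 16 were marked in ZR751shLucif and 12 and 16 in ZR751shMLL3. This split was made after the data were seen and was not tested.

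SP1, a zinc finger factor that binds GC boxes, was found at few members of either set. Of the 10000 strongest SP1 peaks, ZR751shLucif-only regions met 1 and 1 in the ZR751shLucif libraries and 1 and 6 in the ZR751shMLL3 libraries. ZR751shMLL3-only regions met 4 and 0 in ZR751shLucif and 1 and 0 in ZR751shMLL3. Over all merged regions the share was 0.449% to 0.930%, so that the 6 of 83 (7.23%) and the 4 of 82 (4.88%) lay above it. In ZR751shMLL3 replicate 2 regions in all 4 ERα libraries reached 10.7%. The lines overlapped at both sets. The difference was 3.01 points at ZR751shLucif-only and -1.83 points at ZR751shMLL3-only regions (exact p = 1 for each), and the contrast between the sets was -4.84 points (exact p = 0.667). The ZR751shLucif-only value was 0 without ZR751shMLL3 replicate 2, 6.02 without ZR751shMLL3 replicate 1 and -0.602 when any listed peak counted. The ZR751shMLL3-only value turned to 0.610 points without ZR751shLucif replicate 1, and the contrast ran from -8.46 to -1.22 points when 1 library was left out.

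RNA-seq asked whether genes near the regions changed with them. Expression was tested as log2(FPKM + 0.5) with limma over 11134 entries, so fold changes of low genes are understated. KMT2C itself had 2.34 and 6.77 FPKM in the ZR751shLucif libraries, against 1.07 and 2.69 FPKM in the ZR751shMLL3 libraries. The lines overlapped, and the log2 difference was -1.02 ± 0.54 (SE) with a limma adjusted p of 0.629. The paper checked the knockdown separately, by quantitative PCR in biological triplicate, and reports it as significant. ESR1, which encodes ERα, had 11.2 and 14.2 FPKM in the ZR751shLucif libraries, against 12.1 and 10.8 FPKM in the ZR751shMLL3 libraries. Luminal keratins were high in every library, KRT8 at 1652 to 4573 FPKM, and of the basal markers KRT5 and KRT14 were at most 0.101 FPKM. All 8 luminal markers were tested. Of the 6 basal or mesenchymal markers ACTA2 was, and of the 4 markers of other cells COL1A1 was, at 13.1 to 17.8 FPKM.

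Among all entries limma called 0 genes higher (0%) and 1 lower in ZR751shMLL3 (0.00898%), the small nucleolar RNA gene SNORD104. At an unadjusted p of 0.05, 889 entries passed (7.98%). Each region was assigned the gene with the nearest TSS among genes of the FPKM table, within 100 kb, so that a closer gene outside the table was passed over. Of 54 such genes at ZR751shLucif-only regions 35 were tested, and of 41 at ZR751shMLL3-only regions 14 were. Of these limma called 0. An unadjusted limma p of at most 0.05 was found for 7 of the 35 (20.0%) and 2 of the 14 (14.3%), against 7.98% of all entries. These shares lay above the background but rest on few genes. The lines did not overlap at 4 higher and 11 lower of the 35 genes, and at 1 higher and 3 lower of the 14. Over all entries 17.6% were higher and 25.3% lower without overlap, so that the counts without overlap were near the background. AXIN2, DNAH14 and SLC30A10 were nearest to a region of each set.

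The median log2 difference was -0.12 for genes nearest ZR751shLucif-only regions and -0.02 for those nearest ZR751shMLL3-only regions, against -0.10 over all entries. The difference between the sets, taken within each library, was -0.07 and 0.04 in ZR751shLucif and 0.20 and -0.01 in ZR751shMLL3. The lines overlapped, and the difference of 0.11 had an exact p of 0.667 in a permutation test. It turned to -0.06 without ZR751shMLL3 replicate 1. Without ZR751shLucif replicate 2 limma called 1269 entries (11.4%). Of the nearest genes 4 were among them, 3 of the 35 (CD59, HEY2 and PTRH2) and 1 of the 14 (PLOD2). In that fit the lone ZR751shLucif library is assumed to vary like the ZR751shMLL3 libraries.

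The genes with the widest differences are given by their FPKM in ZR751shLucif replicates 1 and 2 and then in ZR751shMLL3 replicates 1 and 2. Near ZR751shLucif-only regions, HEY2, a Notch-responsive repressor, was at 12.9 and 4.22 against 3.20 and 0.957 FPKM, a log2 difference of -1.78 ± 0.62 (SE). Its region lay 30.1 kb from the TSS, in an exon of a non-coding gene. DNAH14 was at 14.5 and 16.9 against 9.33 and 8.08 FPKM, with -0.81 ± 0.27 (SE). RALGPS2, an exchange factor for Ral GTPases, was at 19.3 and 17.7 against 9.29 and 12.1 FPKM. TENT5C, a poly(A) polymerase, was at 18.2 and 21.95 against 11.6 and 11.3 FPKM. In these 4 genes both ZR751shMLL3 libraries lay below both ZR751shLucif libraries. AGR3 was at 73.9 and 164 against 92.3 and 52.2 FPKM, and the lines overlapped.

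In the other direction, KCNK2, a potassium channel gene, was at 3.22 and 2.28 against 6.12 and 12.1 FPKM, with 1.5 ± 0.39 (SE). CD59, an inhibitor of complement, was at 17.3 and 14.0 against 36.0 and 42.3 FPKM, with 1.29 ± 0.28 (SE) and the smallest adjusted p of both sets, 0.418 by limma. HCFC1R1, whose promoter is itself a ZR751shLucif-only region, was at 139 and 92.6 against 245 and 183 FPKM. HSH2D, an adaptor of lymphocyte signaling, was at 2.36 and 3.34 against 4.89 and 3.60 FPKM. In these 4 genes both ZR751shMLL3 libraries were higher. CBFA2T3, a transcriptional corepressor, was at 13.03 and 7.74 against 14.9 and 11.8 FPKM, with overlap.

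**Figure D5:**
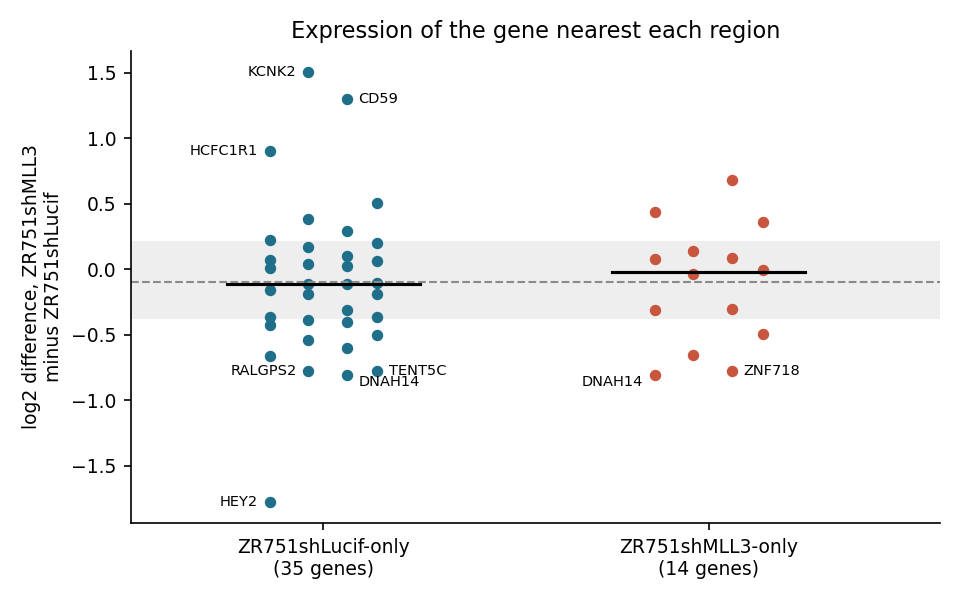
log2 difference in expression (ZR751shMLL3 minus ZR751shLucif, vertical axis) of each tested gene nearest a ZR751shLucif-only (35 genes) or ZR751shMLL3-only (14 genes) region, with a black line at each median (-0.12 and -0.02). The grey band spans the quartiles of all 11134 entries and the dashed line their median (-0.10), and genes of either set lie on both sides of it.

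Near ZR751shMLL3-only regions, PLOD2 was at 9.58 and 17.9 against 24.4 and 18.6 FPKM, with a log2 difference of 0.68 ± 0.37 (SE), and the lines did not overlap. THNSL2 was at 8.10 and 5.35 against 7.77 and 10.6 FPKM. RPA3, a subunit of the single-stranded DNA-binding protein RPA, was at 13.8 and 31.4 against 30.4 and 23.9 FPKM. ENDOD1 and RTL6 had log2 differences of 0.14 and 0.09. In the last 4 genes the lines overlapped. Lower were DNAH14, given above, and ZNF718, a zinc finger gene, at 9.51 and 7.42 against 4.38 and 5.04 FPKM. SPATA17 was at 4.16 and 3.804 against 2.64 and 2.08 FPKM. These 3 did not overlap. ALG10B, a glucosyltransferase, had -0.50 and RICTOR, a subunit of mTOR complex 2, had -0.32, both with overlap.

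Lists of genes tied to ERα were also examined. None of the 30 classical estrogen-induced genes, the 16 luminal transcription factors or the 14 ERα cofactors had a member within 100 kb of a TSS. Members were nearest to only 54 and 41 of the 23500 entries. Being nearest is a narrower measure than a TSS within 100 kb, for which the share of all entries was not computed. The count of 0 is therefore not read as a result about these lists. Of the estrogen-induced genes 26 were tested, of which 3 were higher and 5 lower without overlap and 0 were called by limma, with 4 at an unadjusted p of 0.05. Of the luminal factors 15 were tested, of which 0 were higher and 7 lower without overlap and 0 were called, with 1 at an unadjusted p of 0.05. Of the cofactors all 14 were tested, 2 were higher and 2 lower without overlap and 0 were called, with 1 at an unadjusted p of 0.05. The background is the 17.6% higher and 25.3% lower of all entries.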

How the data were processed

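The deposited ERα, H3K4me1 and SP1 lists hold, per library, the signal that SPP gave each peak and its FDR as −log10, called separately in each library against the input of its line after alignment to hg19 with BWA 0.7.5a-r405 and removal of duplicates with Picard 1.126, per the study's methods and the submitters' notes. List lengths differed and were not tested between the lines, and the counts of members listed in a library depend on them. The deposited signal was used only to rank peaks. For RNA-seq, the authors deposited FPKM of 23500 RefSeq entries, made with TopHat 2.0.13, Cufflinks 2.2.1 and Cuffnorm 2.2.1 per the submitters' notes, and 1 further line with no gene was left out. No file used here gave read counts, so no depth enters the values here. The paper's supplement lists read counts, which were not used.

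Peaks were merged at 1 bp in Python 3.11.15 with pandas 2.3.3 and numpy 2.4.6. Regions were annotated at the mean summit with basic transcripts of protein-coding and lncRNA genes of GENCODE on GRCh37, and exact motif matches were sought on either strand in 201-base windows. Shares carry 95% Wilson intervals from scipy 1.17.1. Libraries were compared with two-sided exact permutation tests. FPKM were tested with limma 3.58.1 in R 4.3.3 as log2(FPKM + 0.5) at a mean above 1, with Benjamini-Hochberg adjustment at 0.05. Surrogate variables, which the authors removed, were not removed here, because 4 libraries leave too little residual spread. RefSeq entries matched a symbol for 22890 entries and a GENCODE gene for 20295. The steps were tested on simulated data.

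The members and the gene lists were chosen with earlier results of these data known. Genes and regions were named by a fixed rule, namely the 10 best-ranked regions per set by the poorer own rank, the 5 widest log2 differences each way per set among nearest tested genes, KMT2C, ESR1, and list genes near a region. Some regions that the rule names are not reported here. Exceptions are named as chosen after their values were seen. Replicates are biological per the labels. The alternatives covered the number of peaks, FDR, window, libraries, pseudocount, filter, scaling, GC content, pairing and gene assignment, with 130 values set at the outset and 3 added after seeing the data. Input libraries were not used here.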

Additional observations from a re-analysis of the deposited data

How the results depend on the processing

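Of 133 values recomputed under another setting, 102 were counted as the same, 25 as moved and 6 as reversed. A difference in H3K4me1 or SP1 counted as the same unless its sign reversed, whatever its size. The H3K4me1 contrast of 20.7 points with any listed peak and an SP1 difference of 0 were thus included. With peaks cut to 100 bp on each side of the summit the sets held 64 and 55 regions, also counted as the same. With 5000 peaks per list the sets held 33 ZR751shLucif-only and 39 ZR751shMLL3-only regions, and with 20000 peaks 236 and 252. Leaving out a library of the opposite line gave 84 to 163 ZR751shLucif-only and 83 to 192 ZR751shMLL3-only regions. With 1 mismatch the ERE share of ZR751shLucif-only regions was 14.5%, and promoters within 5 kb made up 18.1% and 7.32%. The H3K4me1 difference at ZR751shMLL3-only regions reversed to -4.88 points at an FDR of 0.01 or less. SP1 at ZR751shLucif-only regions reversed to -0.602 points with any listed peak, and at ZR751shMLL3-only regions it ran from -4.27 to 0.610 points when 1 library was left out. SP1 at an FDR of 0.01 was not run, since a ZR751shLucif list reached a −log10 FDR of at most 1.54 or 1.21.

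limma called 0 genes with no filter and 0 with the GC trend removed, 2 to 1269 without 1 library, and 33 with a replicate block, of which 0 were nearest a member. Same-numbered libraries were not shown to be pairs, since their deviations correlated at 0.0374 over 2 pairs. The median log2 difference near ZR751shLucif-only regions was -0.34 at a mean above 3, 0.041 with the GC trend removed and -0.35 to -0.020 without 1 library. Near ZR751shMLL3-only regions it was 0.086 at a mean above 3, 0.069 with quantile normalization, 0.084 with the GC trend removed, -0.30 with 20000 ERα peaks and -0.17 to -6.2e-05 without 1 library. The difference between the sets of genes was -0.038 within 20 kb, -0.047 with 20000 ERα peaks and -0.062 to 0.28 without 1 library. Leaving out ZR751shLucif replicate 1 moved the median of all entries by 0.11. The causes were not tested. With 2 libraries per line no exact test could pass 0.05. The files used here give no depth behind peaks and FPKM, and the read counts of the paper's supplement were not used.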
